A study of Mus musculus with 12 samples.

Results

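Orm1, Orm2 and Orm3 encode the mouse orosomucoids, also called α1-acid glycoproteins. They are the rows with these symbols in a deposited table of liver expression, 3 of 18560 genes. The genes were chosen by their FPKM in these libraries, with results known, among them higher Orm2 and Orm3 in knockout than in wild-type males. The male comparison is therefore given as a description, with no test. The values are FPKM (fragments per kilobase of transcript, scaled to the mapped fragments of the library), so levels are on a per-length scale. Between libraries they still carry shifts of scale, which are given beside the comparisons.

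The libraries come from livers of mice aged 12 months, in 4 groups of 3 libraries. These are males with the genotype OXR1A-/- (called knockout here), wild-type males, OXR1A-/- females and wild-type females. OXR1A is a protein isoform encoded by Oxr1, a gene known to protect cells from oxidative damage, and the series title speaks of fatty liver in deficient males. The labels name no treatment and no strain. They also leave unsaid whether each library had its own animal, and a p-value then reflects only library-to-library spread, which may be technical in part.

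The orosomucoids are small, heavily glycosylated plasma proteins of the lipocalin family, whose members fold into a barrel that holds small lipophilic molecules. They bind basic and neutral drugs and are made mainly by hepatocytes. They are classical acute phase proteins: interleukin 6, interleukin 1 and glucocorticoids raise their transcription, in part through C/EBP factors. Mice carry 3 neighbouring genes, and orosomucoids are also known from mouse adipose tissue and human neutrophils.

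In GRCm38 (mm10) the genes lie on the plus strand of chromosome 4 within 21321 bases: Orm1 (Entrez gene 18405) at chr4:63344556-63348163, Orm3 (Entrez gene 18407) at chr4:63356069-63359506 and Orm2 (Entrez gene 18406) at chr4:63362449-63365877. Each has 6 exons in GENCODE release M21. The transcripts, of 775, 775 and 773 bases for Orm1, Orm2 and Orm3, are 91.0% identical between Orm1 and Orm2, 88.5% between Orm2 and Orm3 and 86.5% between Orm1 and Orm3. The first 75 coding bases, in the first exon, show how close the copies are. Capitals mark the 15 positions that are not the same in all 3 genes.
Orm1 (chr4:63344598-63344672): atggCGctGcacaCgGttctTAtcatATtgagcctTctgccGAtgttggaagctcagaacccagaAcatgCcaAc
Orm2 (chr4:63362487-63362561): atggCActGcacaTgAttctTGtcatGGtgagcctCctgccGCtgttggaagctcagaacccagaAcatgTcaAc
Orm3 (chr4:63356200-63356274): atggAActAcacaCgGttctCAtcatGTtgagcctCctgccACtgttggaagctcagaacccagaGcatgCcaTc
Reads from such genes can be hard to assign. Of all 50-base windows, 20.4% in Orm1, 21.8% in Orm2 and 3.6% in Orm3 occur unchanged in another member. Of all 100-base windows, 7.0%, 7.0% and 0.0% do. How reads that match several members were counted is not given in the sources used here, so the split between members is uncertain, and their sum too if such reads were dropped or counted more than once.

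The stretches before the transcription start show where the promoters of Orm2 and Orm3 are alike. They come from RefSeq (GRCm38.p6, plus strand) and run over the 250 bases before the start used in its promoter table, and capitals mark matches to the motifs searched. For Orm2 that start is the first base of the gene given above. For Orm3 it is base 63356158, close to the start of the GENCODE transcript at base 63356162 but inside the longer RefSeq gene span, so the last 89 printed bases, with both Orm3 matches, lie within that span.
Orm2 (chr4:63362199-63362448): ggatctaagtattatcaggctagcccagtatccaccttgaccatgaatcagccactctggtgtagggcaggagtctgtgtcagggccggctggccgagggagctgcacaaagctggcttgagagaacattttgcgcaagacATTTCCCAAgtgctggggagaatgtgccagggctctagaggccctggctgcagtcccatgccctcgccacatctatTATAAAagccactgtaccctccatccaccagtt
Orm3 (chr4:63355908-63356157): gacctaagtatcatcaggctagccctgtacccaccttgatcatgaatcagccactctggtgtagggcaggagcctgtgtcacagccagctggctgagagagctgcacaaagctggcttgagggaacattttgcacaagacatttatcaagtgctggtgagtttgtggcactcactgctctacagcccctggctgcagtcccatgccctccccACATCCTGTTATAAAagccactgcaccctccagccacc
Over the whole RefSeq window of 300 bases, which adds 50 bases after the start, the promoters of Orm2 and Orm3 are 89.2% identical. The motifs, searched on both strands, were TTNNGNAAT for C/EBP, CTGGGAA for acute phase STAT3 sites, TTCNNNGAA for GAS sites, ACANNNTGT for the core of glucocorticoid receptor sites, GGG, any 3 bases and TTCC for NF-kB and TATAAA for the TATA box. Both promoters hold TATAAA, at 33 to 28 bases before the start in Orm2 and 29 to 24 in Orm3, as do 13.6% of 32817 mouse promoters. Orm2 has 1 match to TTNNGNAAT on the minus strand at 109 to 101 bases before the start, a motif held by 11.5% of promoters. Orm3 has ACANNNTGT at 38 to 30 bases before the start, held by 6.8%, directly before the TATA match with no shared base. It also has CTGGGAA on the minus strand at 10 to 16 bases after the start, beyond the printed stretch, held by 11.1%. Neither holds the GAS motif, found in 8.3% of promoters, nor the NF-kB motif, found in 5.6%. A match is a run of letters and not a measured binding site.

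The libraries were alike in size. Values of short genes fell on steps that fit a depth of about 20100000 to 29900000 mapped fragments per library, an estimate from the table itself. All 3 members had at least 1 FPKM in all 12 libraries and entered the test. The lowest value of the family, Orm3 in wild-type male 3, would then rest on about 45 fragments, and the highest, Orm1 in knockout male 3, on about 29259. Knockout male 3, knockout female 1 and wild-type female 1 held traces of transcripts of the other sex, with 0.82 FPKM of Xist in the male, and 0.85 and 1.89 FPKM of the Y-linked gene Eif2s3y in the females. Wild-type male 2 was poor in long transcripts. Oxr1, which covers all isoforms and so does not check the loss of OXR1A, stood at 23.4 ± 1.48 FPKM in knockout males, 17.9 ± 5.61 in wild-type males, 20.2 ± 0.642 in knockout females and 18.5 ± 1.85 in wild-type females (SD, n = 3 each).

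Orm1 is the main orosomucoid transcript of these livers, and it was the most abundant member in all 12 libraries. It ranked between place 46 and place 122 of all genes by FPKM. It had 1467, 1216 and 1806 FPKM in knockout males 1, 2 and 3, against 870, 1247 and 1088 FPKM in wild-type males. Knockout females had 951, 1050 and 953 FPKM, against 554, 701 and 686 FPKM in wild-type females. In males the ranges overlapped, because knockout male 2 lay below wild-type male 2. In females every knockout library lay above every wild-type library.

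Orm2 was the second member by level in every library. It had 255, 179 and 316 FPKM in knockout males 1, 2 and 3, against 65.8, 71.6 and 63.1 FPKM in wild-type males. Knockout females had 93.2, 66.0 and 83.05 FPKM, against 27.5, 19.7 and 17.5 FPKM in wild-type females. The groups did not overlap in either sex, and the 3 knockout males stood apart from the other 9 libraries. Knockout females and wild-type males overlapped.

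Orm3 was the scarcest member, with a level that never passed 20.4 FPKM. It had 15.3, 17.2 and 11.8 FPKM in knockout males 1, 2 and 3, against 4.59, 3.25 and 2.74 FPKM in wild-type males. Knockout females had 20.4, 18.7 and 20.4 FPKM, against 8.23, 11.5 and 7.59 FPKM in wild-type females. The order from high to low was knockout females, knockout males, wild-type females and wild-type males, and no neighbouring groups in this order overlapped.

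**Figure D1:**
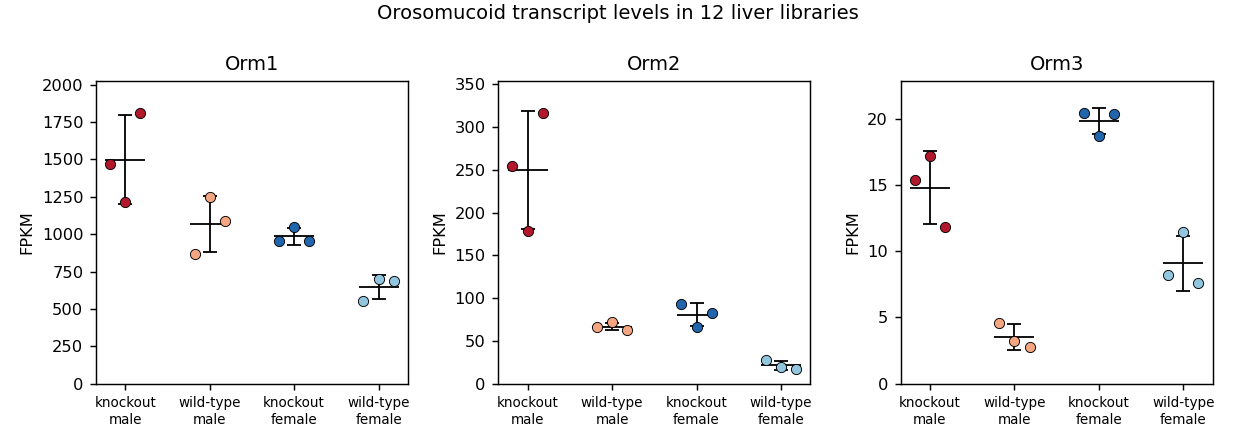
FPKM of Orm1, Orm2 and Orm3 (vertical axes, linear, from 0) in the 12 liver libraries, by group; points are libraries 1, 2 and 3 from left to right, long bars are group means and error bars the SD (n = 3). Orm2 is highest in the knockout males (179 to 316 FPKM), and Orm3 is highest in the knockout females (18.7 to 20.4 FPKM).

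Orm2 averaged 250 ± 68.6 FPKM in knockout males and 66.8 ± 4.34 FPKM in wild-type males (SD, n = 3 each), a 3.74-fold ratio of means and a difference of 1.85 in log2(FPKM + 1), with a standard error (SE) of 0.22. Orm3 averaged 14.8 ± 2.74 FPKM in knockout males and 3.53 ± 0.956 FPKM in wild-type males, 4.20-fold with a log2 difference of 1.81 (SE 0.19). Orm1 averaged 1496 ± 296 FPKM in knockout males and 1068 ± 189 FPKM in wild-type males, 1.40-fold with a log2 difference of 0.48 (SE 0.17). Of the 3 members, 2 were higher without overlap, beside 21.2% of 11514 tested genes that were higher without overlap in this comparison and 2.49% that were lower (23.7% in all). Nothing is read from this count, since the male values were known when the members were chosen. The median log2 difference over all tested genes was 0.19 in males, and relative to it Orm1, Orm2 and Orm3 differed by 0.29, 1.66 and 1.62. With median-ratio scaling the Orm1 difference was 0.24, less than 1 of its SE of 0.25.

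The female comparison shares no library with the male one, although its results too were known when the members were chosen. Its p-values are therefore not independent of that choice, and its estimate of spread used all 12 libraries. There Orm2 rose in the knockout, 3.75-fold, with 80.8 ± 13.8 FPKM in knockout females and 21.5 ± 5.24 FPKM in wild-type females (SD, n = 3 each; log2 difference 1.87, SE 0.22, limma adjusted p = 0.0122). It was higher in 3 of 3 knockout libraries. Among 11514 tested genes, 1 was called higher (0.00869%), and that gene was Orm2. Like the p-values, this standing of Orm2 is not independent of the choice of members, and it is given as a description. The only other called gene, 1810053B23Rik, named here after its values were seen, fell to 0.543 ± 0.116 FPKM in knockout females, against 3.47 ± 0.220 FPKM in wild-type females (limma adjusted p = 0.0122). It was called in 15 of 23 alternatives, among them 7 of 12 fits without a single library, with a limma adjusted p of up to 0.258.

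The size of the Orm2 difference in females changed little with the processing, from 1.74 to 2.05 on the log2 scale over 24 alternatives, but its adjusted p ranged from 0.000502 to 0.119 and was under the threshold of 0.05 in 16 of them. The call was lost without knockout female 1 (limma adjusted p = 0.119), knockout female 2 (0.0518), knockout female 3 (0.112) or wild-type female 2 (0.119), and with median-ratio scaling (0.0590).

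Orm3 and Orm1 were also higher in all 3 knockout females than in any wild-type female, and neither passed the test over all genes. Orm3 averaged 19.8 ± 0.987 FPKM in knockout females and 9.10 ± 2.09 FPKM in wild-type females, 2.18-fold (SD, n = 3 each; log2 difference 1.06, SE 0.19, limma adjusted p = 0.227). Orm1 averaged 985 ± 56.5 FPKM in knockout females and 647 ± 81.3 FPKM in wild-type females, 1.52-fold (log2 difference 0.61, SE 0.17, limma adjusted p = 0.587). All 3 members were higher without overlap in females, where 9.22% of tested genes were and 8.42% were lower without overlap (17.6% in all). As in males, nothing is read from this count, since the female values too were known when the members were chosen. Both Orm1 and Orm3 passed with array weights (limma adjusted p = 0.0349 and 0.0103), a setting under which 229 genes were called in females and whose weights did not fully converge. Whether the knockout difference of a member was larger in one sex was not tested, since the values of both sexes were known when the members were chosen.

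In wild type the members differed between the sexes in opposite directions. The wild-type male libraries also entered the male comparison, whose results were known when the members were chosen. These differences are therefore given as a description, with no test. Orm1 was higher in wild-type males than in wild-type females, 1.65-fold (log2 difference 0.71, SE 0.17), and Orm2 was higher 3.10-fold (log2 difference 1.61, SE 0.22). Orm3 was lower in wild-type males, at 0.388 of its level in wild-type females (log2 difference -1.16, SE 0.19). All 3 differences were without overlap, 3 of 3 libraries each. In this comparison 13.4% of tested genes were called, 2.31% higher and 11.1% lower in males, and 40.2% did not overlap, 6.04% higher and 34.1% lower. With median-ratio scaling 618 genes were called higher and 456 lower, where without rescaling the counts were 266 higher and 1273 lower. The median over all tested genes was -0.21, and relative to it the 3 members differed by 0.93, 1.82 and -0.95.

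In FPKM the same directions held between the knockout groups, given here as values with no test. Orm1 was 1.52-fold and Orm2 3.09-fold higher in knockout males than in knockout females, and Orm3 in knockout males was at 0.747 of its level in knockout females. None of these groups overlapped.

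**Figure D2:**
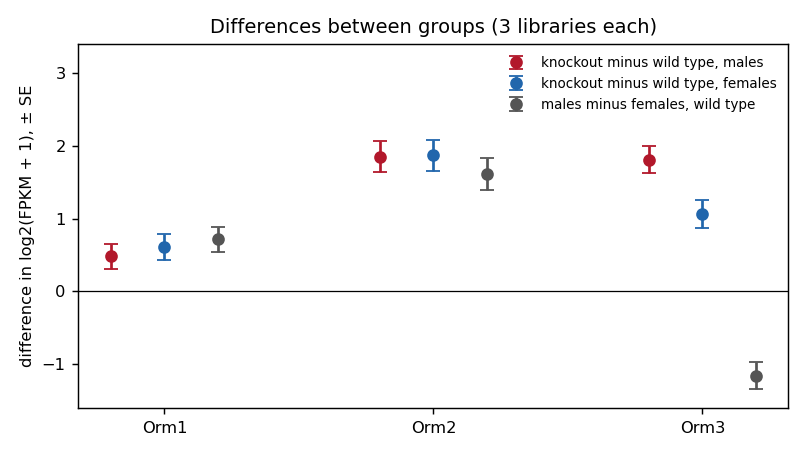
Differences in log2(FPKM + 1) between groups (vertical axis, linear) for Orm1, Orm2 and Orm3; points are fitted differences from limma and error bars their SE (3 libraries per group). Knockout minus wild type lies above 0 for each member in both sexes, while males minus females in wild type is 0.71 for Orm1, 1.61 for Orm2 and -1.16 for Orm3.

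The sum of the 3 members was 1761 ± 362 FPKM in knockout males, 1139 ± 191 FPKM in wild-type males, 1085 ± 42.8 FPKM in knockout females and 678 ± 77.3 FPKM in wild-type females (SD, n = 3 each). It was 1.55-fold higher in knockout than in wild-type males and 1.60-fold higher in knockout than in wild-type females, without overlap in either sex. Since Orm1 makes up most of the sum, the sum moved much less than Orm2 and Orm3 did. Against Alb, the albumin transcript, the sum stood at 4.36% to 6.73% of the Alb FPKM in knockout males and 2.36% to 3.12% in wild-type males. In females it stood at 2.30% to 2.56% of Alb in the knockout and 1.33% to 1.84% in wild type. Alb itself was lower without overlap in knockout males, at 0.789 of its wild-type male mean. The male difference was therefore wider against Alb, 1.97-fold, than for the sum itself. In females, where Alb overlapped, it was 1.53-fold against Alb.

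The make-up of the family differed between groups. Orm2 made up 14.7%, 12.7% and 14.8% of the summed FPKM in knockout males 1, 2 and 3, against 7.004%, 5.42% and 5.47% in wild-type males. In females it made up 8.76%, 5.82% and 7.86% in the knockout, against 4.66%, 2.69% and 2.46% in wild type. The Orm2 share was thus higher in every knockout library than in any wild-type library of the same sex. A share within a library does not change when the library is rescaled.

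The Orm3 share was small throughout. It was 0.884%, 1.22% and 0.554% in knockout males, against 0.488%, 0.246% and 0.237% in wild-type males. In females it was 1.92%, 1.65% and 1.93% in the knockout, against 1.40%, 1.57% and 1.07% in wild type. Females had a higher Orm3 share than males of the same genotype in all libraries, and the knockout a higher one than wild type within each sex. Orm1 averaged 85.1 ± 0.904% of the sum in knockout males and 93.7 ± 1.04% in wild-type males, and 90.7 ± 1.66% in knockout females and 95.4 ± 1.30% in wild-type females.

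**Figure D3:**
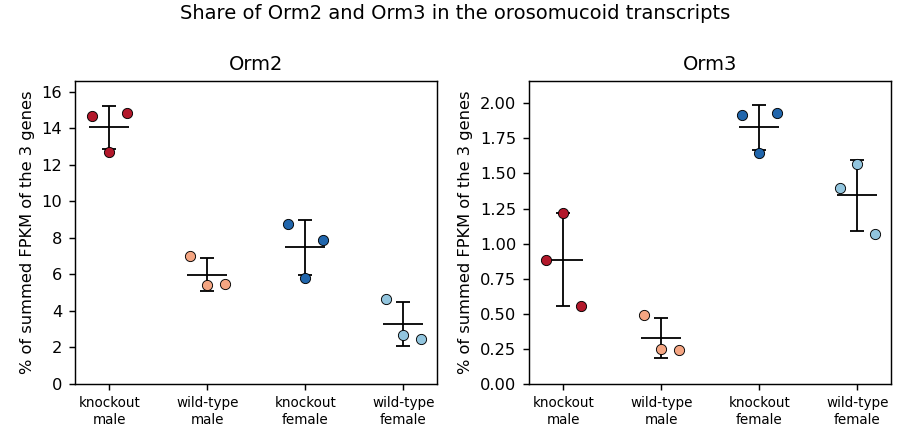
Percent of the summed FPKM of Orm1, Orm2 and Orm3 taken by Orm2 (left) and Orm3 (right) in the 12 libraries (vertical axes, linear, from 0); points are libraries, long bars group means and error bars the SD (n = 3). The Orm2 share is highest in knockout males (12.7% to 14.8%), and the Orm3 share is highest in knockout females (1.65% to 1.93%).

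Other acute phase proteins of the liver put these values in context. Of 31 genes of a list of proteins that rise in the acute phase, 30 were tested. In males 6 of the 30 rose in the knockout, 0 fell and 24 did not pass, beside 2.55% of tested genes called, 2.13% higher and 0.426% lower. The 6 were Lcn2 (lipocalin 2, which binds bacterial siderophores), the metallothioneins Mt1 and Mt2, the pentraxin Apcs, Lbp (the lipopolysaccharide-binding protein) and the heme carrier Hpx. Lcn2 averaged 251 FPKM in knockout males and 20.9 FPKM in wild-type males, 12.0-fold (limma adjusted p = 0.00917), and Apcs 196 FPKM and 80.3 FPKM, 2.44-fold (limma adjusted p = 0.0251). The median log2 difference of the list was 0.58 in males. The count of 6 was 1 with median-ratio scaling and 0 in a fit of the male libraries alone. Without a single library it ranged from 1 (without knockout male 1) to 9 (without knockout male 3). It was 2 without wild-type male 1 or 3, and 3 without knockout male 2, wild-type male 2, knockout female 3 or wild-type female 1 or 2. Of the 6 genes, Lcn2 was called in 12 of 12 such fits, Apcs in 11, Mt2 in 7, Mt1 in 3 and Lbp and Hpx in 2 each.

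The serum amyloids Saa1 and Saa2, strongly induced apolipoproteins of the acute phase, varied widely among male libraries. Saa1 had 2257, 518 and 3469 FPKM in knockout males 1, 2 and 3, against 218, 1106 and 709 FPKM in wild-type males. Saa2 had 1939, 376 and 2755 FPKM in knockout males, against 75.9, 719 and 441 FPKM in wild-type males. Both overlapped between knockout and wild-type males, with knockout male 2 low among the knockouts, as it also was for Orm1 and Orm2. For Orm2, unlike Saa1 and Saa2, that library still lay above all wild-type males.

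In females 0 of the 30 acute phase genes were called by limma, and 6 had an unadjusted p under 0.05, beside 0.0174% of tested genes called and 6.13% at the unadjusted p. With array weights 4 were called. In 10 of the 30 genes the knockout females lay above the wild-type females without overlap, beside 9.22% of all tested genes, and in 2 below. The haptoglobin gene Hp averaged 1735 FPKM in knockout females and 1158 FPKM in wild-type females (log2 difference 0.59, limma adjusted p = 0.714). Lcn2 averaged 48.2 FPKM in knockout females and 16.9 FPKM in wild-type females (log2 difference 1.44, limma adjusted p = 0.780). The median log2 difference of the list was 0.28 in females, against 0.003 over all tested genes. No gene of the list had a log2 difference in females as large as that of Orm2.

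**Figure D4:**
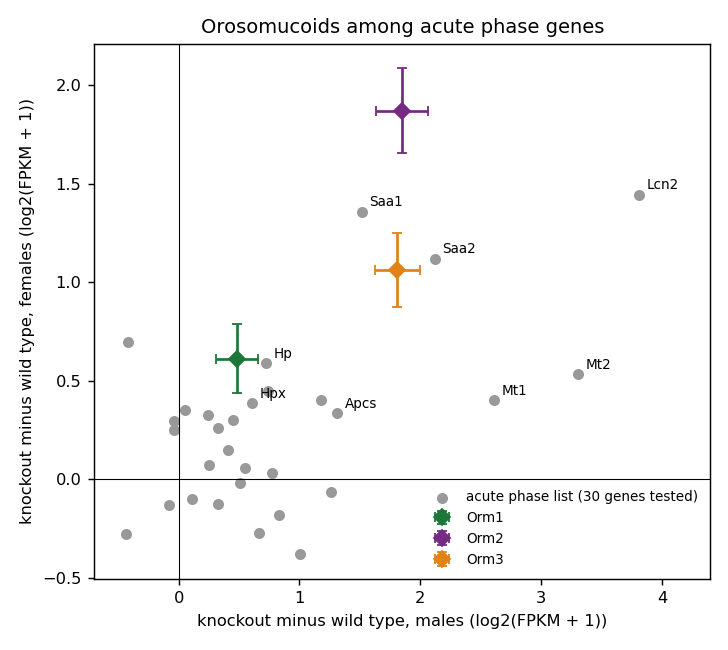
Differences in log2(FPKM + 1) between knockout and wild type in males (horizontal axis, linear) and in females (vertical axis, linear) for the 30 tested genes of the acute phase list (grey) and for Orm1, Orm2 and Orm3 (diamonds with SE bars). Lcn2 has the largest difference in males (3.81), and Orm2 has the largest in females (1.87).

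Plasma proteins that fall in the acute phase went with 0 calls by limma in either sex among 10 tested genes. In males 4 of the 10 had an unadjusted p under 0.05, beside 23.9% of all tested genes, and in females 1, beside 6.13%. In males 3 of the 10 were lower without overlap, beside 2.49% of tested genes, and 0 were higher, beside 21.2%. In females 2 were lower without overlap, beside 8.42%, and 0 were higher, beside 9.22%. Apoa1, the main protein of high-density lipoprotein, averaged 4941 FPKM in knockout males and 7833 FPKM in wild-type males (log2 difference -0.62, limma adjusted p = 0.107). Alb averaged 33285 FPKM in knockout males and 42195 FPKM in wild-type males (log2 difference -0.34, limma adjusted p = 0.139). The list median was -0.28 in males and -0.03 in females, against 0.19 and 0.003 over all tested genes.

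Genes of the signals that act on orosomucoid transcription were also measured. The cytokine genes Il6, Osm and Lif had under 0.5 FPKM in all 12 libraries. Of 16 tested genes of the interleukin 6 branch, beside 2.55% of all tested genes called in males, 1 rose in knockout males, Bcl3, an IkB-like protein, at 17.5 FPKM in knockout and 9.23 FPKM in wild-type males (log2 difference 0.86, limma adjusted p = 0.0217, called in 8 of 12 fits without a single library and not with median-ratio scaling). In males 4 of the 16 had an unadjusted p under 0.05, beside 23.9% of all tested genes. Of the 16, 13 had a positive difference in males, with a list median of 0.26 against 0.19 over all tested genes. Among those with a negative difference, Lifr averaged 24.2 FPKM in knockout males and 41.2 FPKM in wild-type males (log2 difference -0.75, limma adjusted p = 0.139). In females 0 of the 16 were called by limma and 1 had an unadjusted p under 0.05, beside 6.13% of all tested genes. In females 5 of the 16 had a positive difference, with a list median of -0.05 against 0.003 over all tested genes. Without overlap 3 were higher, beside 9.22% of tested genes, and 0 were lower, beside 8.42%. Cebpb, which encodes a C/EBP factor, was among the 3, at 24.9 FPKM in knockout females and 18.3 FPKM in wild-type females (log2 difference 0.41, limma adjusted p = 0.851). In males Cebpb overlapped, with a log2 difference of -0.001. Bcl3 averaged 14.0 FPKM in knockout females and 10.3 FPKM in wild-type females (log2 difference 0.41, limma adjusted p = 0.780).

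Of 17 tested genes of the interleukin 1 and NF-kB branch, 3 rose in knockout males, beside 2.13% of all tested genes. The 3 were the receptor Tnfrsf1a, the adaptor Myd88 and the cytokine Il1a. Their adjusted p-values from limma were 0.0476, 0.0477 and 0.0484, and no more than 1 of the 12 fits without a single library called any of them. With median-ratio scaling 0 of the 17 were called by limma. In males 9 of the 17 had an unadjusted p under 0.05, beside 23.9% of all tested genes, 7 were higher without overlap, beside 21.2%, and 16 had a positive difference, with a list median of 0.41 against 0.19 over all tested genes. In females 0 of the 17 were called by limma, and 0 had an unadjusted p under 0.05. Of 14 tested genes of the glucocorticoid receptor and its targets, 0 were called by limma in males or females. At an unadjusted p under 0.05 there were 3 in males and 1 in females, beside 23.9% and 6.13% of all tested genes. In males 1 of the 14 was higher without overlap, beside 21.2%, and 2 were lower, beside 2.49%. The list median was 0.18 in males, against 0.19 over all tested genes. Fkbp5, a target that restrains the receptor, was the higher 1, at 6.12 FPKM in knockout males and 3.71 FPKM in wild-type males (log2 difference 0.58, limma adjusted p = 0.198). The 2 lower genes were Tat (log2 difference -0.51, limma adjusted p = 0.204) and Fkbp4 (log2 difference -0.18, limma adjusted p = 0.501). In females 1 was higher without overlap, beside 9.22%, and 2 were lower, beside 8.42%, with a list median of 0.01 against 0.003. The higher 1 was Dusp1, a phosphatase gene that glucocorticoids induce, at 50.2 FPKM in knockout females and 17.5 FPKM in wild-type females (log2 difference 1.54, limma adjusted p = 0.587). Per1 went the other way with overlap, at 2.31 FPKM in knockout females and 4.41 FPKM in wild-type females (log2 difference -0.83, limma adjusted p = 0.851).

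Other lipocalins did not move with the orosomucoids as a group. Of 6 tested lipocalins, Lcn2 rose and Apom, a carrier of sphingosine 1-phosphate, fell in knockout males, with 99.7 FPKM in knockout and 192 FPKM in wild-type males (log2 difference -0.97, limma adjusted p = 0.0463, called in 1 of 12 fits without a single library), and 4 did not pass. In females 0 of 6 were called by limma. Ambp, which encodes α1-microglobulin and lies near the orosomucoid genes on chromosome 4, averaged 1603 FPKM in knockout males and 1717 FPKM in wild-type males (log2 difference -0.10, limma adjusted p = 0.596), and 1680 FPKM in knockout females and 1624 FPKM in wild-type females (log2 difference 0.05, limma adjusted p = 0.964). On the other side, Akna begins 1246 bases after the end of Orm2 and averaged 0.983 FPKM in knockout males, 0.433 FPKM in wild-type males, 0.980 FPKM in knockout females and 1.06 FPKM in wild-type females. Of the 10 annotated genes that flank the cluster, 5 on each side, 6 passed the filter on low values. By limma 0 of these 6 were called between knockout and wild type in either sex. Col27a1, a collagen gene, was the 1 of the 6 called between the sexes in wild type, at 13.4 FPKM in males and 2.12 FPKM in females (log2 difference 2.21, limma adjusted p = 0.000559).

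Marker genes of other cell types were set beside these results, because in bulk liver fewer cells of a type and less RNA per cell cannot be told apart. The 8 hepatocyte markers summed to 39946 to 42823 FPKM in knockout males, 48035 to 53197 in wild-type males, 51706 to 53564 in knockout females and 46929 to 52981 in wild-type females. Alb made up most of these sums. In males 0 of the 8 were called and 4 had a positive difference. The list median in males was 0.001, against 0.19 over all tested genes. Without overlap 1 was higher and 1 lower, beside 21.2% and 2.49% of tested genes. Markers of macrophages summed to 404 to 963 FPKM over 15 genes in knockout males, against 192 to 360 FPKM in wild-type males. Of the 14 tested, 6 rose in knockout males, a count that was 1 with median-ratio scaling, 2 without knockout male 2, and 0 without wild-type male 1 or 3 or when the 3 libraries that held such sex traces were left out. Of 10 markers of sinusoidal endothelium 6 rose in knockout males, and of 10 markers of stellate cells 1 did, beside 2.13% of all tested genes. How the endothelial and stellate counts change with the processing was not tested. Over all tested genes 245 were called higher in males, and 68 with median-ratio scaling. Of 6 lymphocyte and 4 cholangiocyte markers tested, 0 were called by limma in males. At an unadjusted p under 0.05 there were 1 and 0, beside 23.9% of all tested genes. In females 0 of these 4 lists' genes were called or had an unadjusted p under 0.05. The part of these non-hepatocyte markers in the male orosomucoid values was not tested. In females the macrophage sum was 558 to 815 FPKM in the knockout and 478 to 734 FPKM in wild type, with 0 of 14 called by limma and 0 at an unadjusted p under 0.05. Between the wild-type sexes, 8 of 14 macrophage, 9 of 10 endothelial and 4 of 10 stellate markers were called lower in males. None was called higher, and 11.1% of all tested genes were called lower. The part of these markers in the sex differences of the members was not tested.

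The 11 measured genes of the neutrophil list summed to 9.56 to 16.7 FPKM in knockout males, 6.72 to 11.3 FPKM in wild-type males, 19.8 to 24.7 FPKM in knockout females and 14.9 to 19.0 FPKM in wild-type females, and Mpo, Elane and Mmp8 had under 0.5 FPKM in all 12 libraries. In males 0 of 5 tested genes were called by limma, and 3 had an unadjusted p under 0.05, beside 23.9% of all tested genes. Of the 5, 2 were higher without overlap, beside 21.2%. All 5 differences were positive, with a list median of 0.45 against 0.19 over all tested genes. In females, where the neutrophil sums did not overlap, 0 of 5 tested genes were called by limma. Of the 5, 2 had an unadjusted p under 0.05, beside 6.13% of all tested genes. The part of the neutrophil genes in the orosomucoid values of either sex was not tested. Of 5 measured fat cell markers, Plin1, Retn and Slc2a4 had under 0.5 FPKM in all 12 libraries, and the sum of the list did not pass 2.74 FPKM in any library.

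Likeness to the members was measured as Pearson's r of log2(FPKM + 1) over the 12 libraries, which share the 4 groups, so r mostly follows group means and is a description. Orm1 and Orm2 had r = 0.91 with each other (Spearman 0.81), at place 11 among the genes closest to Orm1. Orm3 had r = 0.11 with Orm1 and 0.31 with Orm2. The 5 genes most like Orm2 were Ctps (r = 0.95), Gpd1 (0.94), Abcf2 (0.92), Sdccag3 (0.92) and Swsap1 (0.91). Gpd1, the cytosolic glycerol 3-phosphate dehydrogenase, averaged 218 FPKM in knockout males, 124 in wild-type males, 122 in knockout females and 90.8 in wild-type females. Those most like Orm1 were Sars, Zdhhc16, Psmd6, Mrap and Inhbc, with r of 0.92 to 0.94.

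The 5 genes most like Orm3 were Glud1 (r = 0.96), Dusp7 (0.92), Raet1d (0.92), Wdr77 (0.91) and Tmem104 (0.91). Raet1d, a ligand of the receptor NKG2D, had group means in the same order as Orm3, with 58.9 FPKM in knockout females, 43.1 in knockout males, 27.8 in wild-type females and 12.3 in wild-type males. Glud1, the mitochondrial glutamate dehydrogenase, averaged 414 FPKM in knockout males, 298 in wild-type males, 413 in knockout females and 369 in wild-type females.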

How the data were processed

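The authors deposited 1 table of FPKM for 18560 genes in 12 liver libraries, rounded to 2 decimals, per the file headers. TopHat2 and mm10 are named in the submitters' processing notes; for the quantifier, annotation release, filters and read totals, the sources used here give nothing. Per the labels' protocols, poly(A) RNA was captured and copied with random primers. All 12 value columns were used. The test took the 11514 genes that reached 1 FPKM in 3 or more libraries. It ran on log2(FPKM + 1) in limma 3.58.1 (R 4.3.3), with a mean for each group across the 12 libraries and moderated variances that follow the expression level. It was two-sided, p-values were adjusted by Benjamini-Hochberg across the tested genes, and a call needed an adjusted p below 0.05. The log2 scale understates differences of low genes. Each fold divides one group's mean FPKM by the other's. The fit was tested on simulated data. The members have no p where wild-type males are compared, although a test was planned between the wild-type sexes. Values of single-transcript genes of 450 to 900 bases lay 0.096 to 0.118 of a fragment from whole numbers on average at the fitted depth, against a median of 0.257 to 0.270 at other depths. The depth was fitted to make this distance small, so no counting intervals were made. No pair of libraries shared over 0.295% of its values in genes of at least 5 FPKM. Entrez numbers of 18502 genes matched RefSeq's GRCm38.p6 table. RefSeq promoters were found for Orm2 and Orm3. The members and the gene lists were chosen with earlier results of these data known. Named genes are the members, Oxr1 and sex checks, up to 4 genes with the smallest p per list and knockout comparison, the 5 genes most like each member and 5 flanking genes on each side; Lbp, Hpx, Saa1, Saa2 and 1810053B23Rik were singled out after their values were seen.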

Additional observations from a re-analysis of the deposited data

How the results depend on the processing

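Over 24 alternatives per comparison, 21 planned and 3 chosen after seeing the data, no difference of a member changed direction. In males the log2 differences ran from 0.24 to 0.67 for Orm1 (0.24 with median-ratio scaling), 1.61 to 2.07 for Orm2 and 1.56 to 2.05 for Orm3; leaving out 1 library gave 0.34 to 0.62, 1.66 to 2.07 and 1.68 to 1.97. In females leaving out 1 library gave 0.50 to 0.67 for Orm1, 1.74 to 2.05 for Orm2 and 0.95 to 1.22 for Orm3. The female Orm2 call was also lost with the length trend of each library removed (log2 difference 1.76, limma adjusted p = 0.0741), without the 3 libraries with a trace of the other sex (1.94, 0.0810) and without the 3 poorest in long transcripts (2.01, 0.0966), beside 1.89 with median-ratio scaling; the last 2 fits have fewer samples. Array weights called Orm1 (0.59) and Orm3 (0.998) in females. In wild type, males minus females, Orm1 was 0.51 with array weights, 0.61 without the trace libraries and 0.60 to 0.85 without 1 library. The count of called genes was 294 in males, against 174 with no filter, 145 with median-ratio scaling (68 higher and 77 lower, without rescaling 245 and 49), 140 with quantile normalization (61 and 79), 3 with the male libraries alone, 63 with array weights, 132 with the replicate block, 856 with the length trend removed (765 and 91), 125 without the trace libraries and 58 to 570 without 1 library. In females it was 2, against 1 with a pseudocount of 0.1, a filter at a mean of 5 FPKM, median-ratio scaling or the length trend removed, 4 with no filter, 6 with the female libraries alone, 229 with array weights, 0 without the trace libraries or those poor in long transcripts and 0 to 12 without 1 library. Between wild-type males and females it was 1539, against 904 with a mean of at least 5 FPKM, 2361 with the length trend removed, 525 without the trace libraries and 675 to 2081 without 1 library. The causes were not tested. Same-numbered libraries of knockout and wild type did not deviate together throughout. The r of their deviations was 0.56, 0.11 and -0.27 in males and -0.06, -0.13 and -0.02 in females. The numbers were therefore not taken as pairs, although knockout and wild-type male 1 did deviate together. With the replicate block no member's call changed, while in males 132 genes were called against 294, and 1 acute phase gene was called higher against 6.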

Other observations

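Within groups the members varied on their own. With group means taken out, the deviations of Orm1 and Orm2 over the 12 libraries had r = 0.20, those of Orm1 and Orm3 -0.54 and those of Orm2 and Orm3 -0.30, as a description over libraries of 4 groups. The genes whose deviations were closest to those of Orm1 were G0s2 (r = 0.95), an inhibitor of the lipase ATGL, Gc (0.92), the vitamin D-binding protein, Serpina1b (0.92), Apoa5 (0.91) and Ccdc22 (0.91). G0s2 had 179, 63.3 and 276 FPKM in knockout males 1, 2 and 3, against 44.1, 184 and 91.98 FPKM in wild-type males, and so followed Orm1 from library to library within both male groups. Knockout females had 143, 144 and 107 FPKM of G0s2, against 54.2, 101 and 153 FPKM in wild-type females. Knockout male 3, wild-type male 2 and knockout female 2 were highest in their groups for both Orm1 and G0s2. Each was also the library of its group poorest in long transcripts. In wild-type females this did not hold for Orm1. The part of this library trait in the likeness was not tested, and G0s2 was picked as the closest of all tested genes. The genes closest to Orm2 in this measure were Ube2cbp (0.93), Mir3057 (0.87), Cyp4a12b (0.86), Mup1 (0.85) and Aar2 (0.85), and those closest to Orm3 were Pak4, D17Ertd648e, F3, Apbb3 and Mbd4, with r of 0.86 to 0.91.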
